A study of Mus musculus with 50 samples.

Results

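The comparison set early 2-cell mouse embryos that carried injected Duxbl mRNA against embryos of the same stage that carried mCherry mRNA. It covered 11 RNA sequencing libraries of the 50 in the series, 5 from Duxbl embryos and 6 from mCherry embryos, chosen by their library labels and not by any measured value. All genes of the deposited table were considered, whatever their biotype: 21180 of 35750 passed a filter on low values and were tested. Duxbl embryos were wild-type (WT) C57BL6/J zygotes that received 200 ng/µl of mRNA encoding Duxbl-V5-2A-NLS-mCherry at 24 h after the ovulation-inducing hormone hCG. mCherry embryos were WT C57BL6/J zygotes that received the same concentration of mRNA encoding NLS-mCherry at the same time. Uninjected WT embryos of the strain, 6 libraries, were harvested alongside. All 3 groups came from superovulated females, were cultured in KSOM medium and were harvested at the early 2-cell stage (early 2C), 32 h after hCG. Each library was made from a tube of 5 pooled embryos, so the spread between libraries is a spread between pools, and the labels do not say which pools shared a litter or an injection session. To place the early 2C result in time, libraries of these groups were also read at an earlier stage, late 1C (late 1-cell, 28 to 30 h), and at a later one, late 2C (48 h).

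Duxbl is a double homeobox protein, of the same family as mouse Dux. Dux is a transcription factor that activates a burst of genes and retroviral elements when the embryonic genome is first switched on around the 2-cell stage. Genes of that burst include the Zscan4 zinc finger genes, the Usp17l deubiquitinase genes, Zfp352 and clusters of genes and pseudogenes related to translation factors and PRAME proteins. Their RNA appears briefly and is then lost as the embryo leaves the 2-cell stage. Before that burst nearly all RNA in the embryo is maternal, stored in the oocyte.

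Levels are given as CPM, which here means the authors' scaled and rounded values divided by each library's normalized total in M, and differences as log2(CPM + 1) with the standard error (SE) of a limma linear model. A gene was called at a Benjamini-Hochberg adjusted p under 0.05 over all 21180 genes, two-sided. Deposited totals were 22.3 to 26.4 M in the 11 libraries, and the step between low values put the reads behind them at roughly 15.9 to 29.2 M in Duxbl and 18.3 to 23.4 M in mCherry libraries, with no estimate for 1 mCherry library. Oocyte markers were abundant in both groups (Bmp15 at 1910 to 2760 CPM in Duxbl and 1940 to 2910 CPM in mCherry libraries). The libraries numbered 4 and 5 stood apart from the rest of their groups in the same direction in all groups: the median correlation of their deviations from the group means was 0.245 between groups, against 0.0939 among the other numbers. The labels give no meaning to these numbers, and results are therefore also given without these libraries.

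Duxbl1, the gene whose product was supplied, was far higher in the embryos that received its mRNA (ENSMUSG00000048502, plus strand of mm39 chromosome 14, 25979001 to 25990512). It stood at 1339, 2381, 3661, 2943 and 3691 CPM in Duxbl libraries 3 to 7, against 138.0, 195.1, 213.3, 142.4, 116.3 and 153.4 CPM in mCherry libraries 1 and 3 to 7. The groups were separate by a wide margin, and uninjected libraries, at 130.1 to 239.7 CPM, lay with the mCherry libraries. The difference was 4.07 ± 0.22 (log2, SE; adjusted p = 1.44e-10). Reads from the injected mRNA and from the embryo's own Duxbl1 gene cannot be told apart in these values. Duxf3, the current symbol of mouse Dux, averaged 2.31 ± 0.37 CPM in Duxbl and 3.39 ± 2.31 CPM in mCherry libraries (SD, n = 5 and 6) and was not called (log2 difference -0.22 ± 0.33).

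**Figure D1:**
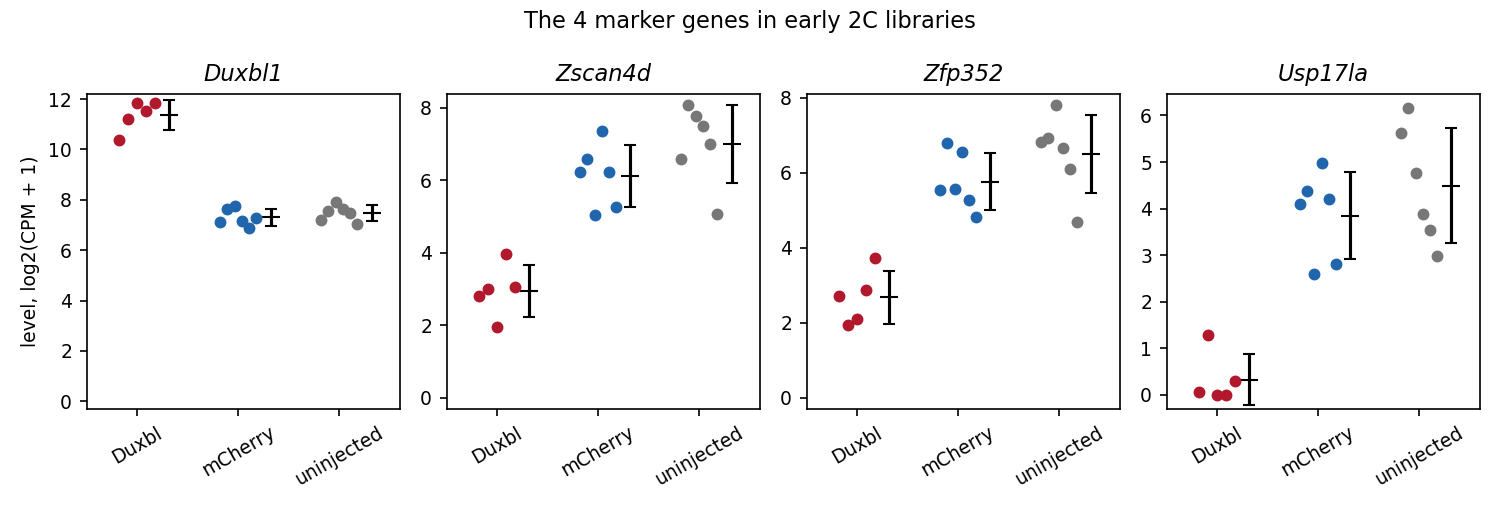
Levels of Duxbl1, Zscan4d, Zfp352 and Usp17la in early 2C libraries, as log2(CPM + 1) on the vertical axis. Points are libraries of Duxbl (5), mCherry (6) and uninjected (6) embryos; bars are the mean and SD of the group on this scale. Duxbl1 is higher in all Duxbl libraries than in any mCherry or uninjected library, and the other genes are lower in all of them.

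Across the transcriptome the response was small in number and almost entirely downward. Of the genes tested, 80 were called (0.378%), 75 lower (0.354%) and 5 higher (0.0236%) in Duxbl embryos, and 1014 (4.79%) had an unadjusted p under 0.05. The falls were large: in log2(CPM + 1), where the pseudocount shrinks the differences of weak genes, they ran from -3.60 to -1.01 with a median of -2.29, against a median of 0.00315 over all genes tested. All 75 were at least 2-fold lower, 48 at least 4-fold and 17 at least 8-fold. In 44 of them the Duxbl mean was under 1 CPM, and in 36 the mCherry mean was over 10 CPM, the highest being Zscan4d at 79.1 CPM. The Duxbl and mCherry libraries did not overlap for 70 of the 75, while 0.817% of all genes were lower without overlap. Of the Duxbl libraries, 4 had a higher approximate depth than any mCherry library with an estimate, while Duxbl library 5 was the shallowest, and without Duxbl library 5 the calls numbered 52, of which 50 were lower.

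The number of calls varied with the settings and libraries used. With voom weights, which let the spread of low values grow, 4 genes were called, Duxbl1 and 3 of the 75. That setting also dropped the pseudocount of 1 CPM. Without the libraries numbered 4 and 5, 40 were called, Duxbl1 and 39 of the 75, and within those libraries alone, 4, again Duxbl1 and 3 of the 75. In each of the alternatives run all 75 stayed below 0 and all 5 above 0.

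**Figure D2:**
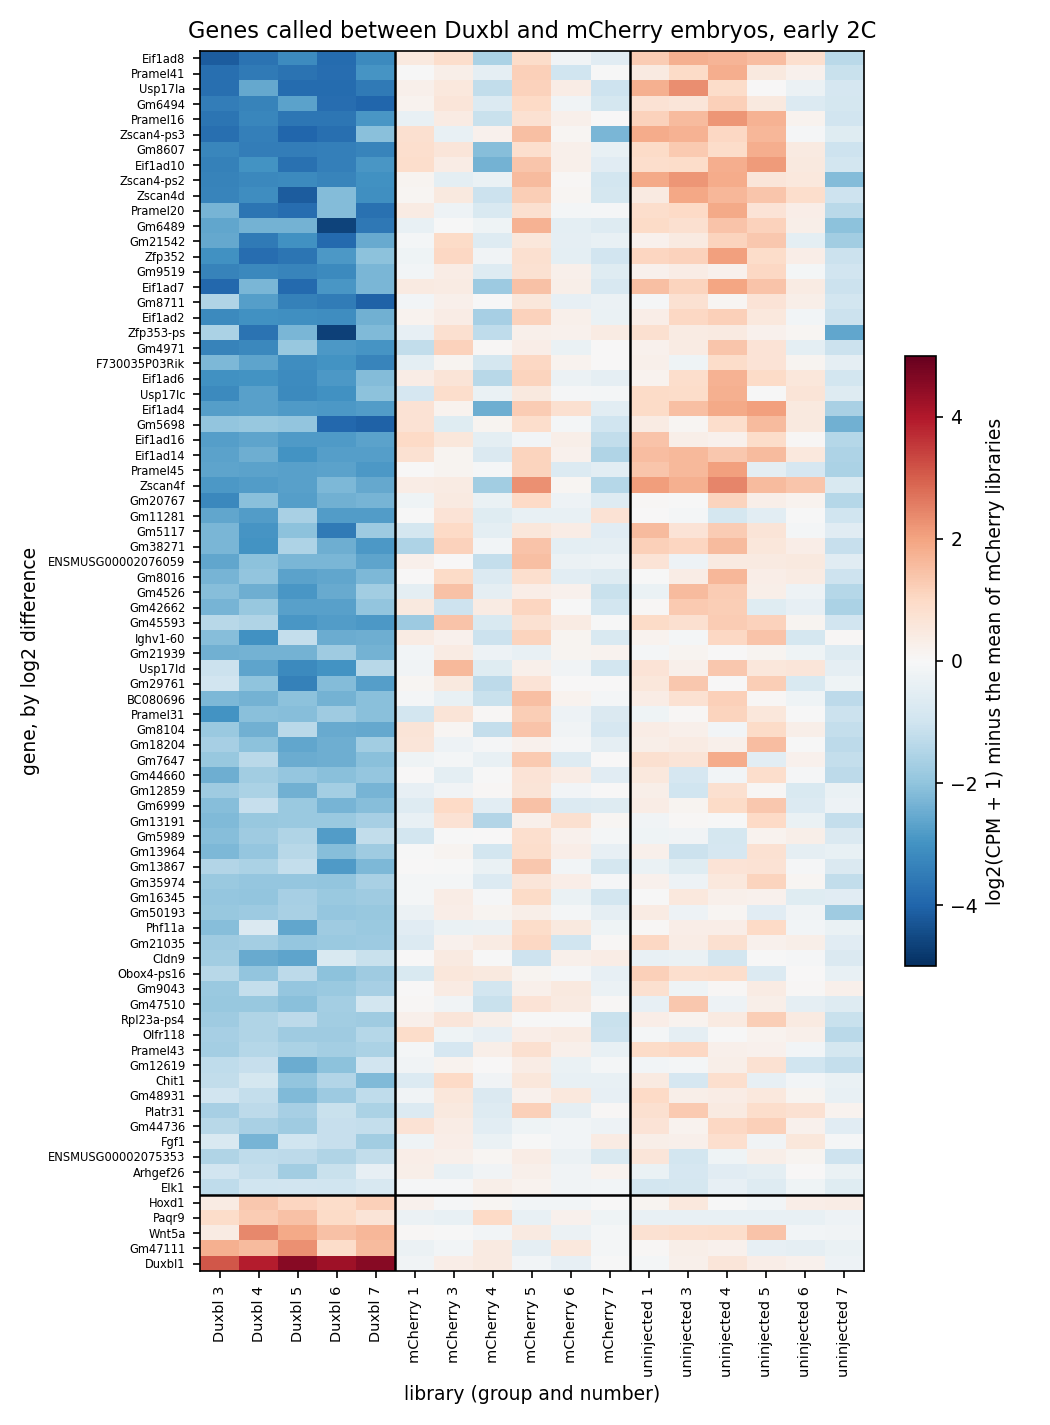
The 80 called genes (vertical axis, ordered by log2 difference, lowest at the top) in the 17 early 2C libraries (horizontal axis, Duxbl, then mCherry, then uninjected). Colour is log2(CPM + 1) minus the mean of the mCherry libraries. The 75 lower genes are blue across the 5 Duxbl libraries and near white or red in most mCherry and uninjected libraries; uninjected library 7 is paler blue for many of them.

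The Zscan4 family, SCAN-domain zinc finger genes that mark the mouse 2-cell stage, held the most abundant of the genes that fell. Zscan4d (ENSMUSG00000090714, mm39 chromosome 7, 10895301 to 10900086, minus strand) stood at 6.03, 6.99, 2.88, 14.6 and 7.32 CPM in Duxbl libraries 3 to 7, against 74.0, 95.3, 31.8, 162, 74.0 and 37.2 CPM in mCherry libraries 1 and 3 to 7. The highest Duxbl library was below the lowest mCherry library, and the difference was -3.16 ± 0.48 (adjusted p = 0.00181). All 9 members tested were below 0 (49.3% of all genes were), with a median of -2.64. Of these, 4 were called (0.354% of all genes were called lower): Zscan4d, Zscan4f, Zscan4-ps2 and Zscan4-ps3, the last of which overlapped between groups. Zscan4-ps2 stood at 0, 0.0837, 0.129, 0.0398 and 0.236 CPM in Duxbl libraries 3 to 7, against 10.1, 6.16, 6.97, 29.4, 9.49 and 4.44 CPM in mCherry libraries 1 and 3 to 7 (-3.21 ± 0.56, adjusted p = 0.00511). Zscan4-ps3 stood at 0.121, 0.46, 0, 0.119 and 2.6 CPM in Duxbl libraries 3 to 7, against 26.2, 11, 16.9, 43, 15.5 and 2.2 CPM in mCherry libraries 1 and 3 to 7 (-3.40 ± 0.54, adjusted p = 0.00233). The overlap came from library 7 of each group, the highest Duxbl and the lowest mCherry library of this gene. Without the libraries numbered 4 and 5 neither Zscan4-ps2 nor Zscan4-ps3 was called (adjusted p = 0.18 for both, log2 differences of -2.93 and -2.80). Zscan4c (-2.97 ± 0.69, adjusted p = 0.0831) and Zscan4a (-2.49 ± 0.91) had values of similar size without passing. Zscan4-ps1 made up most of what was left of the family: it averaged 47.4 CPM in Duxbl and 66.6 CPM in mCherry libraries (log2 difference -0.62 ± 0.29, not called). The family's summed level was 27.5 to 94.5 CPM in Duxbl and 128 to 412 CPM in mCherry libraries. Members are near-identical copies, and how reads shared between them were assigned is not given in the sources used here.

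Among the called Zscan4 genes, the start regions of Zscan4d and Zscan4f are shown because they share a motif that few promoters hold. They are RefSeq sequences of the GRCm38.p6 build, from 250 bases before to 50 bases after the gene start, 5′ to 3′ on the gene's strand: Zscan4d at chr7:11166099-11166398 (minus) and Zscan4f at chr7:11397665-11397964 (plus). Capitals mark a match on either strand to TGATT and ATCA with 2 bases between them, a loose form of the mouse Dux motif, which reads TGATT and AATCA with 1 base between them.
Zscan4d: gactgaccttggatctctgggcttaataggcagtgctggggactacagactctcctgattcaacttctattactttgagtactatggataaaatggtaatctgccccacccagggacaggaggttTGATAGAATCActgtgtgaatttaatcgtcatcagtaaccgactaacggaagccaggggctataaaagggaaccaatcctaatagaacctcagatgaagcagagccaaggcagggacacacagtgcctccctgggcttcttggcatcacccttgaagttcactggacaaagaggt
Zscan4f: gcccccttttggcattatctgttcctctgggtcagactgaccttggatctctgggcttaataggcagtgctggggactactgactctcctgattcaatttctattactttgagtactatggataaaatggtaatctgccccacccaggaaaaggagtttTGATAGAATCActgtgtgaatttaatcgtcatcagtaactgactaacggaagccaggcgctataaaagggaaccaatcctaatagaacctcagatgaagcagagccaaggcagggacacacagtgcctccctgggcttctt
The match began 125 bases upstream of the annotated start of Zscan4d and 91 bases upstream of that of Zscan4f, and the aligned sequences were identical in 259 of 334 columns (77.5%, ends included). In both, TATAAA and CCAAT followed downstream of it. Of the 75 lower genes 22 had an entry, and the loose form matched 2 of these 22 genes and 0.244% of all 27025 genes in the table (0.207% of its 32851 promoters). The strict form matched 0 of the 22 and 0.0407% of all genes. The motifs were chosen with these promoters in view, and a match is no measurement of binding.

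Eif1ad genes, a cluster whose members encode proteins with the domain of translation initiation factor 1A, gave the largest number of called genes of any list. Eif1ad8 (ENSMUSG00000079034, mm39 chromosome 12, 87561086 to 87565036, plus strand) had the largest fall of all genes called. It stood at 0.402, 0.920, 1.85, 0.716 and 1.73 CPM in Duxbl libraries 3 to 7, against 33.8, 45.2, 7.29, 46.5, 21.1 and 16 CPM in mCherry libraries 1 and 3 to 7 (log2 difference -3.60 ± 0.48, adjusted p = 0.00033). mCherry library 4 was the lowest of its group, yet higher than every Duxbl library. All 18 members tested were below 0 (49.3% of all genes were), with a median of -2.65. Of these, 8 were called (0.354% of all genes were called lower): Eif1ad2, 4, 6, 7, 8, 10, 14 and 16. The next largest fall was that of Eif1ad10, at 0.442, 0.879, 0.129, 0.398 and 0.983 CPM in Duxbl libraries 3 to 7, against 26.9, 18.4, 1.91, 38.7, 17.1 and 9.2 CPM in mCherry libraries 1 and 3 to 7 (-3.29 ± 0.53, adjusted p = 0.00233). mCherry library 4 was again the lowest of its group and still above the Duxbl libraries. Eif1ad16 averaged 0.0567 ± 0.0616 CPM in Duxbl and 6.94 ± 4.0 CPM in mCherry libraries, and Eif1ad7 averaged 1.95 ± 1.51 CPM in Duxbl and 26.6 ± 18.9 CPM in mCherry libraries. The most abundant member, Eif1ad15, averaged 6.71 CPM in Duxbl and 61.0 CPM in mCherry libraries but its libraries overlapped and it did not pass (-3.0 ± 0.68, adjusted p = 0.0789). Summed over the family, levels were 30.8 to 59.9 CPM in Duxbl and 99.8 to 504 CPM in mCherry libraries. Eif1a, the gene of the standard translation factor, averaged 6.99 ± 2.68 CPM in Duxbl and 5.46 ± 2.06 CPM in mCherry libraries and was not called (0.30 ± 0.31).

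Eif1ad2 and Eif1ad6, called Eif1ad genes with a RefSeq promoter entry, carried another relative of the paired homeodomain site. The sequences are again GRCm38.p6, with Eif1ad2 (in RefSeq under its older symbol BB287469) at chr12:87816327-87816626 (plus) and Eif1ad6 (older symbol Gm4027) at chr12:87618659-87618958 (plus). Capitals mark a match on either strand to TAAT and AATCA with 2 bases between them.
Eif1ad2: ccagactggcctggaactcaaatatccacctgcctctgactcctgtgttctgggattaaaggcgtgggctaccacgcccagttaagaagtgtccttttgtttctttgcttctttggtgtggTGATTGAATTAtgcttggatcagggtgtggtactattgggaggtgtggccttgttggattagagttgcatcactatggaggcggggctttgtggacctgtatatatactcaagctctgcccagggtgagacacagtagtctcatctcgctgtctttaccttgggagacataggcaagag
Eif1ad6: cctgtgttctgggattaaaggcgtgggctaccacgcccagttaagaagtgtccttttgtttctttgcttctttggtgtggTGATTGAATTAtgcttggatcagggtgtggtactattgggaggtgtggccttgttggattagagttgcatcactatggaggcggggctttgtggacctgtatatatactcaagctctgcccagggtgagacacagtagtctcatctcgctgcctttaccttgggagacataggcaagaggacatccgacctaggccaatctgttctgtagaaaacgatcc
The RNA of Eif1ad2 was scarce after Duxbl injection, at 0.0402, 0.167, 0.129, 0.119 and 0.826 CPM in Duxbl libraries 3 to 7, against 9.94, 11.4, 1.99, 20.2, 10.5 and 6.64 CPM in mCherry libraries 1 and 3 to 7 (-2.96 ± 0.41, adjusted p = 0.000457). Eif1ad6 stood at 0.161, 0.209, 0.0859, 0.318 and 1.1 CPM in Duxbl libraries 3 to 7, against 11.3, 13.9, 2.63, 19.5, 6.75 and 6.05 CPM in mCherry libraries 1 and 3 to 7 (-2.84 ± 0.42, adjusted p = 0.000839). Both were separate between the groups. The match began 129 bases upstream of the start of Eif1ad2 and 170 bases upstream of that of Eif1ad6. This form matched these 2 of the 22 lower genes with an entry and 0.4% of all genes. Among the same 22 genes, CCAAT matched 14 (63.6%) and TATAAA 10 (45.5%), against 41.1% and 15.7% of all 27025 genes with an entry, on either strand. No matches of different motifs overlapped in the promoters of the lower genes. These shares describe the 22 genes with an entry, several of which are copies of each other.

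Usp17l genes encode deubiquitinating enzymes, which remove ubiquitin from proteins. Usp17la (ENSMUSG00000054568, mm39 chromosome 7, 104506216 to 104511874, plus strand) was listed at 0.0402, 1.42, 0, 0 and 0.236 CPM in Duxbl libraries 3 to 7, against 16, 19.8, 5.06, 30.6, 17.4 and 6.01 CPM in mCherry libraries 1 and 3 to 7. Duxbl library 4 was the highest of its group and still below every mCherry library (log2 difference -3.52 ± 0.50, adjusted p = 0.000515). Usp17lc stood at 1.69, 2.68, 1.72, 2.03 and 4.96 CPM in Duxbl libraries 3 to 7, against 12.6, 44.2, 18.2, 33.2, 22.1 and 21.5 CPM in mCherry libraries 1 and 3 to 7 (-2.82 ± 0.35, adjusted p = 0.000138). Usp17ld stood at 4.66, 0.962, 0.344, 0.517 and 3.58 CPM in Duxbl libraries 3 to 7, against 9.7, 36.4, 6.85, 13.4, 9.65 and 5.31 CPM in mCherry libraries 1 and 3 to 7 (-2.25 ± 0.43, adjusted p = 0.0119). Both genes fell, Usp17ld with a narrow gap between the highest Duxbl and the lowest mCherry library. All 5 members tested were lower without overlap (0.817% of all genes were), with a median of -2.25. Usp17lb and Usp17le did not pass, with differences of -1.55 ± 0.45 and -2.21 ± 0.50. Usp17ld was no longer called without the libraries numbered 4 and 5 (adjusted p = 0.306), nor without Duxbl library 5 or 6 (0.0574 and 0.0582). The family's summed level was 4.25 to 15.4 CPM in Duxbl and 39.6 to 120.5 CPM in mCherry libraries.

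PRAME-like genes encode leucine-rich repeat proteins and lie in tandem clusters, and most of their RNA came from members that were not called. Of 41 members tested 6 were called lower (0.354% of all genes were): Pramel41, 16, 20, 31, 45 and 43. Pramel41 stood at 0.161, 0.335, 0.215, 0.119 and 1.02 CPM in Duxbl libraries 3 to 7, against 14.4, 18, 10.6, 35.1, 6.75 and 14.3 CPM in mCherry libraries 1 and 3 to 7. The groups were separate (-3.55 ± 0.40, adjusted p = 3.19e-05). Pramel16 stood at 0.241, 0.628, 0.258, 0.278 and 1.06 CPM in Duxbl libraries 3 to 7, against 11.2, 19.7, 6.17, 25.5, 17.8 and 14.9 CPM in mCherry libraries 1 and 3 to 7 (-3.41 ± 0.43, adjusted p = 0.000138). Pramel20 stood at 2.09, 0.209, 0.0859, 2.42 and 0.157 CPM in Duxbl libraries 3 to 7, against 19.1, 11.9, 8.04, 25.3, 13.2 and 13.6 CPM in mCherry libraries 1 and 3 to 7 (-3.13 ± 0.44, adjusted p = 0.000457). Both were separate too, although Pramel20 varied over a wide range within the Duxbl group. The median over all 41 was only -0.215, but 34 were below 0 (49.3% of all genes were). By limma 15 were lower and 0 higher at an unadjusted p under 0.05, and 10 were lower without overlap (0.817% of all genes). The family's summed level was 11670 to 17760 CPM in Duxbl and 13140 to 18100 CPM in mCherry libraries, in ranges that overlapped.

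Zinc finger and other genes known from 2-cell embryos gave 3 calls among 28 tested, where 0.354% of all genes were called lower. Their median was -0.449, with 21 below 0 (49.3% of all genes were). Zfp352 (ENSMUSG00000070902, mm39 chromosome 4, 90107057 to 90113939, plus strand) stood at 5.59, 2.85, 3.31, 6.32 and 12.2 CPM in Duxbl libraries 3 to 7, against 45.6, 110.0, 46.4, 92.1, 37.9 and 26.9 CPM in mCherry libraries 1 and 3 to 7. No Duxbl library reached the lowest mCherry library (-3.08 ± 0.44, adjusted p = 0.000839). Gm20767 stood at 1.77, 5.06, 2.83, 3.9 and 4.09 CPM in Duxbl libraries 3 to 7, against 21, 34.2, 19.5, 50.2, 20.7 and 15.6 CPM in mCherry libraries 1 and 3 to 7 (-2.56 ± 0.35, adjusted p = 0.000386). Fgf1, which encodes a secreted fibroblast growth factor, stood at 7.72, 1.97, 6.4, 5.61 and 3.38 CPM in Duxbl libraries 3 to 7, against 11.6, 17.4, 10.6, 13.7, 12.2 and 18.4 CPM in mCherry libraries 1 and 3 to 7. Its fall was smaller (-1.39 ± 0.26, adjusted p = 0.0115) though without overlap, and its adjusted p was 0.0732 without the libraries numbered 4 and 5 and 0.0502 without Duxbl library 7. Its span overlaps Gm5820 on the opposite strand, which averaged 88.7 CPM in Duxbl and 104 CPM in mCherry libraries, and the library kits do not mark strand.

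Obox genes, oocyte-specific homeobox genes and their pseudogenes, showed 1 call among 32 tested, where 0.354% of all genes were called lower. The call was the pseudogene Obox4-ps16. It stood at 1.29, 0.502, 1.37, 0.437 and 0.747 CPM in Duxbl libraries 3 to 7, against 2.56, 7.92, 7.45, 5.52, 4.75 and 3.42 CPM in mCherry libraries 1 and 3 to 7, with no overlap (-1.70 ± 0.34, adjusted p = 0.0166, or 0.219 without the libraries numbered 4 and 5), and it was not called without Duxbl library 4, 6 or 7 or mCherry library 3 (adjusted p of 0.0521 to 0.0703). Of the 32, 26 were below 0 (49.3% of all genes were), with a median of -0.282. By limma 10 were lower and 0 higher at an unadjusted p under 0.05, and 6 were lower without overlap (0.817% of all genes). Obox2 and Obox1, at 2260 and 3173 CPM in Duxbl and 2665 and 3546 CPM in mCherry libraries, were not called. Other families of this stage gave no call. The 4 tested Tdpoz genes had a median of -0.457, the 5 tested Trim43 family genes a median of -0.0557, and Tcstv3 averaged 127.6 ± 4.6 CPM in Duxbl and 127.7 ± 11 CPM in mCherry libraries.

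Pseudogenes made up a larger share of the genes that fell than of the genes tested, while long noncoding RNAs did not. Of the 75, 32 were annotated as protein coding (0.214% of 14977 tested), 29 as pseudogenes (1.15% of 2523), 10 as long noncoding RNAs (0.332% of 3011), 2 as unconfirmed transcripts of the class TEC (0.374% of 535) and 2 as microRNA genes (5.88% of 34). Pseudogenes were thus 38.7% of the lower genes and 11.9% of the genes tested, and long noncoding RNAs 13.3% and 14.2%; these shares were not tested against each other. Among them 17 were processed pseudogenes, which derive from reverse-transcribed mRNAs, 11 unprocessed ones, which derive from duplicated genes, and 1 an immunoglobulin V pseudogene. A biotype here is the annotation of the deposited table: Zscan4-ps2 and Zscan4-ps3 carry pseudogene names but are listed as protein coding.

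The largest falls outside protein-coding genes were close in size to those inside them. Gm6494, a processed pseudogene on mm39 chromosome 10 (58593092 to 58595389, plus strand), stood at 0.442, 0.586, 1.5, 0.159 and 0.0393 CPM in Duxbl libraries 3 to 7, against 17.1, 23.4, 8.88, 30.9, 13.0 and 7.74 CPM in mCherry libraries 1 and 3 to 7 (-3.45 ± 0.38, adjusted p = 2.88e-05). Gm9519, an unprocessed pseudogene on chromosome 7, stood at 0.442, 0.544, 0.472, 0.596 and 1.97 CPM in Duxbl libraries 3 to 7, against 12.1, 17.6, 8.28, 23.9, 16.5 and 8.65 CPM in mCherry libraries 1 and 3 to 7 (-3.07 ± 0.32, adjusted p = 1.40e-05). Gm8711, an unprocessed pseudogene on chromosome 10, stood at 7, 2.34, 1.2, 0.994 and 0.393 CPM in Duxbl libraries 3 to 7, against 19.8, 25.8, 21.3, 32.9, 16.2 and 17.7 CPM in mCherry libraries 1 and 3 to 7 (-3.03 ± 0.36, adjusted p = 6.01e-05). All 3 were separate between the groups, and Gm8711 kept its call in each of the 24 alternatives run for the named genes, as did Duxbl1. Gm8607, an unprocessed pseudogene inside the Eif1ad cluster, stood at 0.241, 0.0837, 0.0859, 0.119 and 0.236 CPM in Duxbl libraries 3 to 7, against 20.3, 17.5, 1.75, 20.4, 13.3 and 8.25 CPM in mCherry libraries 1 and 3 to 7 (-3.39 ± 0.47, adjusted p = 0.000457). Its lowest mCherry library was library 4, as for the Eif1ad genes around it. Gm21542, a processed pseudogene on chromosome 19, stood at 2.25, 0.628, 1.33, 0.278 and 2.32 CPM in Duxbl libraries 3 to 7, against 16.9, 35.7, 11.3, 27, 13 and 13.6 CPM in mCherry libraries 1 and 3 to 7 (-3.10 ± 0.43, adjusted p = 0.000457). Gm6489, a processed pseudogene on chromosome 1, stood at 3.58, 4.27, 4.29, 0.119 and 1.34 CPM in Duxbl libraries 3 to 7, against 20.1, 26.1, 22.6, 89.5, 18.8 and 16.7 CPM in mCherry libraries 1 and 3 to 7 (-3.10 ± 0.55, adjusted p = 0.00759). Both were separate, and in Gm6489 mCherry library 5 stood far above the rest of its group.

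Of the long noncoding RNAs, F730035P03Rik on chromosome 7 had the largest fall, with 3.12 CPM on average in Duxbl and 30.2 CPM in mCherry libraries (-2.84, adjusted p = 1.40e-05). The other 9 had mCherry means of 2.85 to 8.55 CPM and differences of -2.36 to -1.44. Platr31, whose name places it among the pluripotency-associated transcripts, averaged 0.259 CPM in Duxbl and 2.85 CPM in mCherry libraries (-1.46, adjusted p = 0.0353). The microRNA entries are unnamed: ENSMUSG00002076059 on chromosome 7 (0.289 CPM in Duxbl and 6.84 CPM in mCherry libraries) lies inside Usp17lc on the same strand, so its reads cannot be told from those of Usp17lc, and ENSMUSG00002075353 on chromosome 16 averaged 0.295 CPM in Duxbl and 2.44 CPM in mCherry libraries. In all, 13 of the 75 overlap the span of another gene.

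Many of the genes that fell lie together in the genome. Chaining lower genes less than 1 Mb apart gave 5 neighbourhoods of 3 or more that held 27 of the 75, while 42 lay alone and the whole set spread over 19 chromosomes. The largest was on mm39 chromosome 12 (87561086 to 88241270) with 8 Eif1ad genes and the pseudogenes Gm21939 and Gm8607. Next came chromosome 5 (94582216 to 95576487) with Pramel41, Pramel43, Pramel45 and 3 pseudogenes, and chromosome 7 (10895301 to 11348039) with Zscan4d, Zscan4f, Zscan4-ps2, Zscan4-ps3 and Gm18204. Smaller ones held Pramel20, Pramel16 and Pramel31 on chromosome 4 and Usp17ld, Usp17lc and the microRNA entry on chromosome 7. Within these intervals the other tested genes had median differences of -0.478 to -0.171. In the chromosome 12 interval 30 tested genes were not called, 21 of them below 0 (49.3% of all genes were).

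The 5 genes called higher were few and, apart from Duxbl1, weakly expressed. Gm47111, an unconfirmed TEC transcript on mm39 chromosome 9 (121672888 to 121676003, minus strand), stood at 3.70, 3.05, 5.58, 1.59 and 3.07 CPM in Duxbl libraries 3 to 7, against 0.120, 0.246, 0.876, 0, 0.965 and 0.275 CPM in mCherry libraries 1 and 3 to 7, with no overlap (1.62 ± 0.26, adjusted p = 0.00234). Wnt5a, which encodes a secreted Wnt ligand, stood at 1.49, 8.74, 5.84, 4.09 and 4.84 CPM in Duxbl libraries 3 to 7, against 0.918, 0.862, 0.717, 1.56, 0.523 and 0.747 CPM in mCherry libraries 1 and 3 to 7 (1.56 ± 0.33, adjusted p = 0.0345). The lowest Duxbl library of Wnt5a was under the highest mCherry library, and uninjected libraries ran from 0.640 to 4.07 CPM, so against uninjected embryos Wnt5a was not called (adjusted p = 0.362).

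Hoxd1, a homeobox transcription factor gene, stood at 0.442, 1.8, 1.33, 1.07 and 1.49 CPM in Duxbl libraries 3 to 7, against 0.28, 0.041, 0.159, 0, 0 and 0.118 CPM in mCherry libraries 1 and 3 to 7, with no overlap (0.99 ± 0.19, adjusted p = 0.0164). Paqr9, of the progestin and adipoQ receptor family, stood at 1.41, 2.09, 2.58, 1.51 and 1.02 CPM in Duxbl libraries 3 to 7, against 0.0399, 0, 1.55, 0, 0.482 and 0.118 CPM in mCherry libraries 1 and 3 to 7 (1.06 ± 0.23, adjusted p = 0.0425). mCherry library 4 of Paqr9 lay within the Duxbl range. Without the libraries numbered 4 and 5, only Duxbl1 of the 5 stayed called. When single libraries were left out, Gm47111 kept its call each time, whereas Wnt5a and Paqr9 each lost it in 9 of 11 cases and Hoxd1 in 6 of 11. Other members of their families were not called: 1 of 11 tested Wnt ligands, 1 of 23 Hox genes and 1 of 6 Paqr genes was called. Of all genes 0.0236% were called higher. The list medians were 0.112, 0.0812 and 0.00668.

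The fall was concentrated in genes that embryos normally gain at this time. In uninjected embryos, which share no library with the Duxbl and mCherry groups, 321 of the 21180 genes were higher at early 2C than at late 1C (1.52%) and 508 lower (2.40%). Of the 321 normal risers, 69 were called lower in Duxbl embryos (21.5%, against 0.354% of all genes) and none higher, and these 69 were 92% of the lower calls. The median difference over the risers was -0.983, with 286 below 0 (89.1%, against 49.3% of all genes) and 160 at or below -1 (49.8%, against 1.03%). The size of the fall followed the size of the normal rise. None of 40 genes that normally rise by under 1 log2 unit was called (median -0.104). Called were 16 of 170 that rise by 1 to 2 (median -0.793), 31 of 78 that rise by 2 to 3 (-1.56) and 22 of 33 that rise by more than 3 (-2.84). A fall cannot exceed the mCherry level on this scale, so weak genes could not fall far. Among the smallest risers were weak genes such as Gm13466 (0.216 CPM in mCherry libraries) and abundant ones such as Rbpms2 (781 CPM). How far the scale sets this relation was not tested. None of the 508 normal fallers was called; their median was -0.0924, with 374 below 0 (73.6%). By class, 28 of 164 protein-coding risers, 27 of 85 pseudogene risers and 10 of 61 long noncoding risers were called lower. Without the libraries numbered 4 and 5 the normal course itself had 390 calls, against 835 with them (2.90% of the 28808 genes of the fit over all groups).

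**Figure D3:**
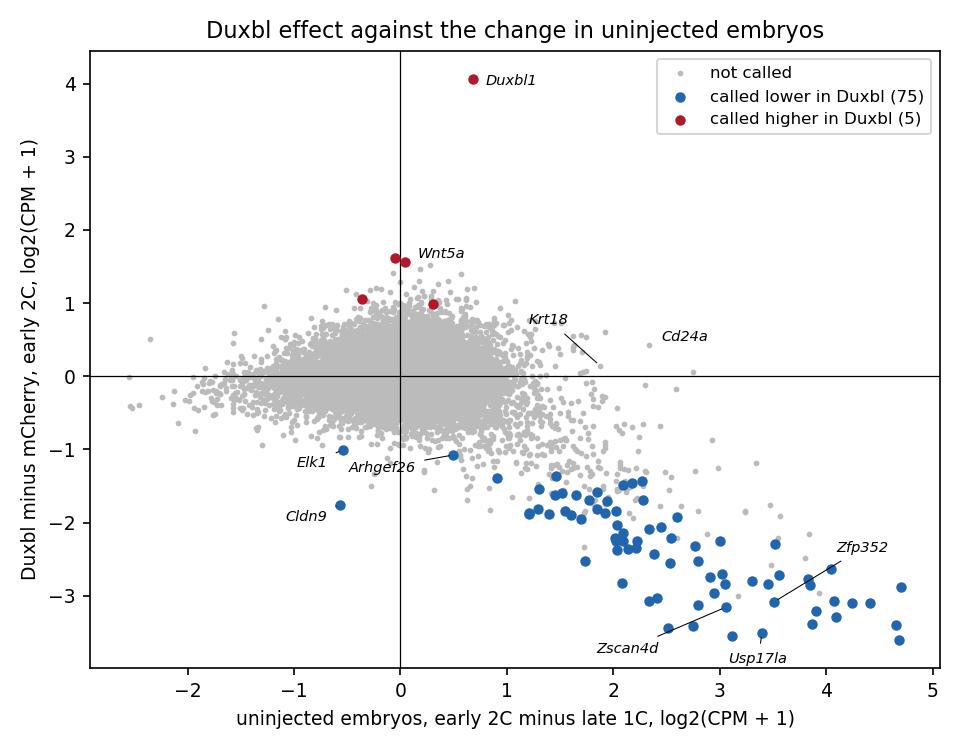
Each point is a gene tested at early 2C. The horizontal axis is its change in uninjected embryos, early 2C minus late 1C, and the vertical axis the difference of Duxbl minus mCherry at early 2C, both in log2(CPM + 1). The genes called lower in Duxbl lie almost all at the right, where uninjected embryos gain RNA, while the cloud of other genes is centred near 0.

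A position on the normal rise was computed for each library as the median over the 281 risers of at least 2-fold, with uninjected late 1C at 0 and uninjected early 2C at 1. Duxbl libraries 3 to 7 stood at 0.135, 0.157, 0.0273, 0.00868 and 0.159, against 0.771, 0.972, 0.543, 1.2, 0.786 and 0.629 in mCherry libraries 1 and 3 to 7. All Duxbl early 2C libraries were thus close to the late 1C level of these genes. The mCherry libraries averaged 0.817 ± 0.238 and the uninjected ones 0.999 ± 0.307 (SD, n = 6 each), and no difference is read from these means, since the genes and the scale were taken from the uninjected libraries. At late 1C the same genes stood at -0.133 to -0.0787 in 4 Duxbl libraries and at -0.0769 to 0.289 in 6 mCherry libraries. In pools of whole embryos, fewer embryos that express a gene and less RNA per embryo cannot be told apart. The part of developmental timing in the difference was not tested.

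**Figure D4:**
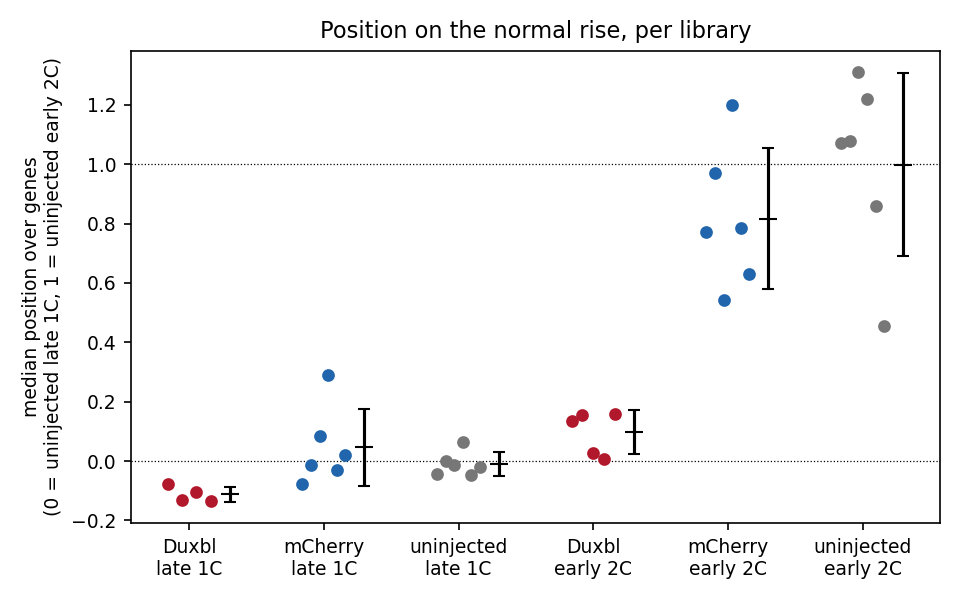
Position of each library on the normal rise, on the vertical axis, as the median over 281 genes (0 is the uninjected late 1C mean, 1 the uninjected early 2C mean). Points are libraries and bars the mean and SD of each group. The Duxbl early 2C libraries lie between 0.00868 and 0.159, below all mCherry and uninjected early 2C libraries.

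Not every normally rising gene was low. Of the 321, 35 were above 0, and those named here were picked after their values were seen. Cd24a, a cell surface glycoprotein gene, averaged 14.2 ± 3.7 CPM in Duxbl and 10.8 ± 4.0 CPM in mCherry libraries (0.42 ± 0.27), although it normally rises by 2.34. Krt18, an epithelial keratin gene, averaged 9.52 ± 5.45 CPM in Duxbl and 7.73 ± 1.73 CPM in mCherry libraries (0.14 ± 0.30). Cdkn1a, a cell cycle inhibitor gene, averaged 13.7 ± 4.7 CPM in Duxbl and 10.9 ± 3.7 CPM in mCherry libraries (0.30 ± 0.28). None of the 3 was called, and the standard errors leave room for modest differences in either direction.

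The other 6 lower calls were not among the normal risers. Fgf1, Gm5989, Gm13867 and Arhgef26 had positive but uncalled changes in uninjected embryos, while the means of Cldn9 and Elk1 there were lower at early 2C than at late 1C. Arhgef26 averaged 10.1 ± 3.7 CPM in Duxbl and 21.7 ± 4.3 CPM in mCherry libraries (-1.08). Cldn9, a tight junction protein gene, averaged 2.08 ± 1.70 CPM in Duxbl and 8.59 ± 2.86 CPM in mCherry libraries (-1.75). Elk1, an ETS-family transcription factor gene, averaged 1.43 ± 0.29 CPM in Duxbl and 3.90 ± 0.65 CPM in mCherry libraries (-1.01). Against uninjected embryos these 3 were not called, with adjusted p of 0.318 for Arhgef26, 0.0681 for Cldn9 and 0.695 for Elk1.

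Injection alone gave no call. mCherry and uninjected embryos differed in 0 of 21180 genes in the same limma model (0.00%), with 790 (3.73%) at an unadjusted p under 0.05, and in 0 genes with voom weights, with 805. Against uninjected embryos 158 genes were called in Duxbl embryos (0.746%), 145 lower (0.685%) and 13 higher (0.0614%). They included 70 of the 75 genes lower against mCherry embryos, and of the 5 higher ones Duxbl1, Gm47111 and Paqr9; both comparisons use the same Duxbl libraries. The mCherry mean of the 75 genes lay a median of 0.241 below the uninjected mean on the log2 scale.

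Outside the genes of the 2-cell stage, the lists of maternal RNA and cellular machinery contained no gene called by limma. Only 0.378% of all genes were called, so 0 calls in a list of this size is near the background. At an unadjusted p under 0.05 (4.79% of all genes) they held only 3 ribosomal protein genes and 1 stress response gene with lower values. There was also 1 trophectoderm gene with higher values. Maternal oocyte transcripts had 0 calls among 52 tested and a median of -0.126, with 45 below 0 (49.3% of all genes were). The maternal mRNA decay machinery had 0 of 24 and a median of 0.0612, and regulators of genome activation 0 of 30 and 0.00155. Chromatin repressors of the 2-cell program had 0 of 37 with a median of -0.0117, ribosome biogenesis genes 0 of 56 with -0.0767, and cytosolic ribosomal protein genes 0 of 84 with -0.0642. The DNA replication, G2/M, p53 target, stress response, heat shock, interferon, pluripotency, trophectoderm and primitive endoderm lists, and Wnt receptors and targets, also gave none, with medians of -0.135 to 0.175. Dppa2, a regulator of the 2-cell program, averaged 106 ± 14 CPM in Duxbl and 113 ± 7 CPM in mCherry libraries (-0.10 ± 0.16).

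Markers of other sources of RNA gave no call either (0.378% of all genes were called). Their medians were 0.0987 for cumulus and granulosa cells (10 genes tested), 0.416 for oviduct epithelium (11), 0.118 for sperm (6) and -0.153 for blood (5). Summed levels were 53.3 to 76.9 CPM in Duxbl and 54.9 to 85.2 CPM in mCherry libraries for cumulus and granulosa genes, 459 to 696 against 450 to 887 CPM for oviduct genes, 168 to 222 against 163 to 192 CPM for sperm genes and 1.87 to 5.15 against 2.42 to 5.95 CPM for blood genes, Duxbl first in each pair. The oviduct markers Ovgp1 (3.93 CPM in Duxbl and 1.58 CPM in mCherry libraries) and Epcam (9.52 CPM in Duxbl and 5.19 CPM in mCherry libraries) had unadjusted p of 0.0172 and 0.0215. Foxj1, a marker of ciliated oviduct cells, was at 0 to 0.0393 CPM in Duxbl and 0 to 0.123 CPM in mCherry libraries. The part of such RNA in the 5 higher calls was not tested.

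The difference of the 75 lower genes was not yet called at late 1C, and its median lay further below 0 at late 2C. In a fit of all 9 groups of the series, 0 of the 75 lower genes were called at late 1C, where only Duxbl1 was called among the genes tested at early 2C (0.00472%), but 73 of the 75 were already below 0 (48.0% of all those genes were), with a median of -0.578. The effect at early 2C differed from that at late 1C for 1 gene, Gm21542 (-3.03, adjusted p = 0.0306), and for 54 of the 75 at an unadjusted p under 0.05 (1.87% of all those genes). The 75 were picked by their early 2C difference, which is part of this contrast. A high share among them is thus built in, and nothing is read from it. Gm21542 averaged 0.162 CPM in Duxbl and 0.355 CPM in mCherry embryos at late 1C, and 1.44 CPM in Duxbl and 20.95 CPM in mCherry embryos at early 2C. This call was lost without early 2C Duxbl library 4 or 6, without early 2C mCherry library 1, 3 or 5, and without the libraries numbered 4 and 5.

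At late 2C, 69 of the 75 were called lower and none higher, with a median of -3.93, where 31.4% of the genes tested at early 2C were called lower. The effect was called more negative at late 2C than at early 2C for 39 of the 75 (25.5% of all those genes) and more positive for 6 (24.4%). This contrast also contains the early 2C difference by which the 75 were picked. A fall cannot exceed the mCherry level on this scale, and in 44 of the 75 the Duxbl mean was already under 1 CPM at early 2C. How far a higher mCherry level sets the larger differences at late 2C was not tested. Zscan4d averaged 1.33 ± 1.98 CPM in Duxbl and 197 ± 119 CPM in mCherry embryos at late 2C, against 8.03 ± 4.67 CPM in Duxbl and 84.5 ± 49.8 CPM in mCherry embryos at early 2C in the scaling of this fit, and its effect grew by -3.29 (adjusted p = 2.24e-05). Zfp352 averaged 25.3 ± 47.9 CPM in Duxbl and 327 ± 183 CPM in mCherry embryos at late 2C. Here the Duxbl libraries varied widely, and the change of the effect did not pass (adjusted p = 0.0535).

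The 6 genes whose effect was called more positive at late 2C than at early 2C were Gm8711, Gm6494, Pramel41, Obox4-ps16, Gm21035 and Pramel43. Of these Pramel41 alone was still called lower at late 2C. Gm8711 averaged 0.681 ± 1.5 CPM in Duxbl and 1.2 ± 1.22 CPM in mCherry embryos at late 2C, against 2.53 ± 2.86 CPM in Duxbl and 23.9 ± 6.4 CPM in mCherry embryos at early 2C. In uninjected embryos 38 of the 75 rose from early to late 2C (30.0% of all those genes did), 11 fell (35.5%) and 26 had no called change.

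Of the 5 genes higher at early 2C, 4 were also higher at late 2C, where 32.3% of the genes were called higher. Wnt5a averaged 39.0 ± 18.7 CPM in Duxbl and 3.14 ± 3.23 CPM in mCherry embryos at late 2C, and Paqr9 averaged 9.63 ± 2.63 CPM in Duxbl and 0.377 ± 0.399 CPM in mCherry embryos. Hoxd1 did not keep its direction: it averaged 2.76 ± 5.32 CPM in Duxbl and 2.80 ± 1.85 CPM in mCherry embryos at late 2C (log2 difference -0.74 ± 0.42, adjusted p = 0.127). Duxbl1 itself averaged 3959 ± 631 CPM in Duxbl and 139.6 ± 19 CPM in mCherry embryos at late 1C, and 2826 ± 1127 CPM in Duxbl and 337 ± 137 CPM in mCherry embryos at late 2C.

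**Figure D5:**
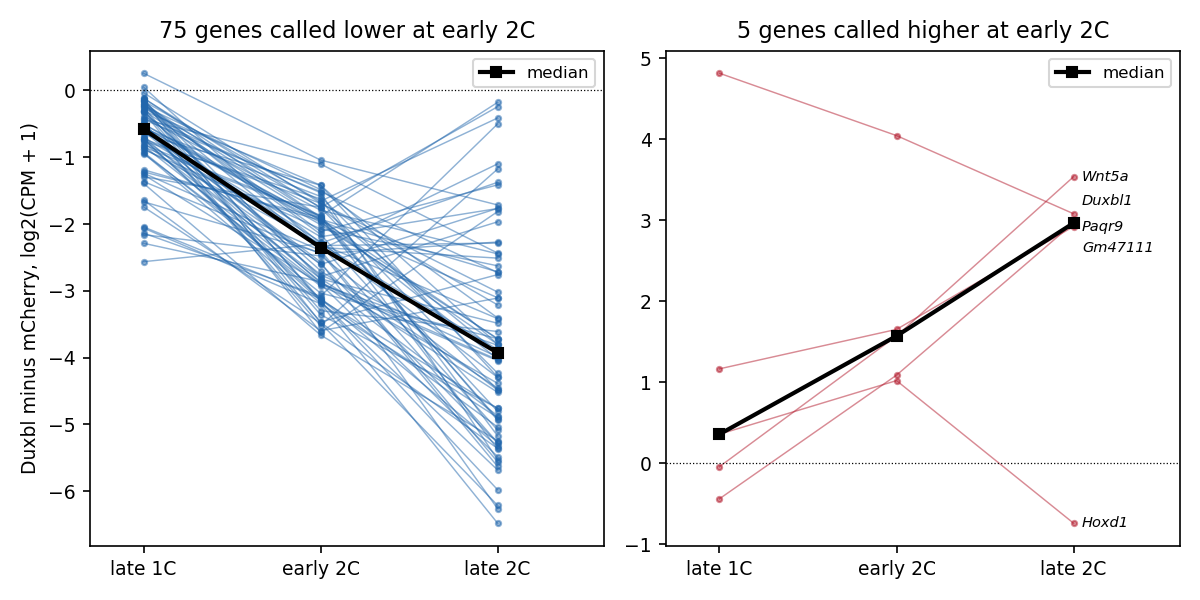
Difference of Duxbl minus mCherry in log2(CPM + 1) across the stages late 1C, early 2C and late 2C (horizontal axis), from a fit of all 9 groups, for the 75 genes called lower (left) and the 5 called higher (right) at early 2C. Thin lines are genes and the black line is the median. The medians of the lower genes are -0.578 at late 1C and -3.93 at late 2C, and for 6 genes the effect was called more positive at late 2C than at early 2C.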

How the data were processed

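Tubes of 5 pooled embryos were turned into libraries with SMART-Seq v4 and Nextera XT kits, which do not mark strand, per the labels' protocols. The submitters' processing notes name Trimmomatic 0.39, STAR 2.7.10a, Picard 3.0.0, featureCounts 2.0.4, DESeq2 1.36.0 and the build mm39, without roles. The deposited table holds gene values that the authors scaled per library and rounded to whole numbers, here treated as a score and not as raw counts, so no count model was used. How reads that match several genes were counted is not given in the sources used here.

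Columns were matched to samples by title. Values were divided by library totals times an own TMM factor (trims of 30% and 5%) to give CPM. Genes with a deposited value of at least 10 in at least 5 of the 17 early 2C libraries were tested with limma 3.58.1 (R 4.3.3; trend and robust) on log2(CPM + 1) in 1 fit of the Duxbl, mCherry and uninjected groups. Stages were compared in a fit of all 9 groups (minimum in at least 4 libraries, 28808 genes). P-values are two-sided, Benjamini-Hochberg adjusted over all genes tested, and called under 0.05. They measure the spread between pools, which may be technical. The steps were tested on simulated data in which only genes with a mean of at least 10 CPM were changed. Weaker genes were not covered, and 36 of the 75 lower genes had an mCherry mean of at least 10 CPM.

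Any called gene could be named. Values in every library are given for the 4 markers of the comparison, the higher genes, the 10 largest non-overlapping falls with at least 10 CPM in mCherry embryos, the 6 largest changes outside protein-coding genes and up to 3 genes of smallest adjusted p in each list with a call. The comparison, the gene lists and the motifs were chosen with earlier results of these data known. Alternatives were another scaling, filter, pseudocount, weighting, control or set of libraries, and a replicate block. No pair of libraries was identical.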

Additional observations from a re-analysis of the deposited data

Results flagged for a closer look

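Among the named genes, 4 of 56 tests of a library against its group found 1 library far from the rest, where chance flags about 1 in 20 groups. Duxbl library 7 was high for Eif1ad2, at 0.826 CPM against 0.0402 to 0.167 CPM in the other Duxbl libraries, and for Gm9519, at 1.97 CPM against 0.442 to 0.596 CPM. Duxbl library 4 was high for Usp17la, at 1.42 CPM against 0 to 0.236 CPM. mCherry library 5 was high for Gm6489, at 89.5 CPM against 16.7 to 26.1 CPM.

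The Duxbl effect (Duxbl minus mCherry, log2) differed between stages for several named genes by limma's test of the difference. From late 1C to early 2C it changed by -3.03 for Gm21542 (adjusted p = 0.0306). From early 2C to late 2C it became more negative for Zscan4d (-3.29, adjusted p = 2.24e-05), Fgf1 (-2.87, 4.18e-05), Gm6489 (-2.82, 0.00207), Pramel16 (-2.73, 0.000682), Gm20767 (-2.68, 0.00189) and Gm21542 (-2.53, 8.54e-05). The same held with smaller changes for Usp17lc (-2.01, adjusted p = 0.0105), Zscan4-ps3 (-1.89, 0.0218), Hoxd1 (-1.76, 0.013), Pramel20 (-1.70, 0.0319) and Gm9519 (-1.63, 0.0488). It became more positive for Gm8711 (2.58, adjusted p = 0.000301), Gm6494 (2.35, 0.0348), Pramel41 (1.81, 0.0371) and Obox4-ps16 (1.51, 0.0312). Among the genes higher at early 2C it also became more positive for Wnt5a (1.96, adjusted p = 0.00684), Paqr9 (1.88, 2.01e-05) and Gm47111 (1.27, 0.0164).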

How the results depend on the processing

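The count of 80 called genes, 5 higher and 75 lower, varied with the settings and libraries used. Without a filter it was 53 (3 higher, 50 lower), with a pseudocount of 0.1 CPM 130 (124 lower), with 5 CPM 36 (3 higher, 33 lower) and with voom weights 4 (1 higher, 3 lower). Dropping the libraries numbered 4 and 5 left 40 (1 higher, 39 lower), and within them alone, an alternative chosen after seeing the data, 4 (1 higher, 3 lower). Fitting only Duxbl and mCherry libraries gave 128 (122 lower), fitting all 9 groups gave 9 higher, and uninjected controls gave 158 (13 higher, 145 lower). When any single library was dropped there were 52 to 100 calls, 2 to 7 higher and 50 to 96 lower. The cause of these shifts was not tested. The 75 stayed below 0 and the 5 above 0 in each of these, which picking them on the same libraries largely fixed in advance.

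The effect at early 2C minus that at late 1C, with 1 call, gave 2 without a filter and 0 with either other pseudocount, with voom weights and without the libraries numbered 4 and 5. It gave 0 to 2 when single early 2C Duxbl or mCherry libraries were left out, and no late 1C library was left out alone. The normal course, with 835 calls, gave 390 without the libraries numbered 4 and 5, and 525 to 926 when single libraries were left out, the lowest without uninjected early 2C library 4.

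A replicate block gave 92 calls, 4 higher (Paqr9 was not called) and 88 lower. The labels do not say whether replicate numbers pair the libraries. Same-numbered Duxbl and mCherry libraries had correlations of 0.0693 to 0.333 over 5 pairs, 4 of them over 0.1, and 4 of 5 Duxbl libraries correlated best with their own number, a hint from the data and not the design. Of 672 values of the 28 named genes over 24 alternatives, 563 kept their call, 109 lost it and 0 changed direction. The direction was largely fixed in advance, since these genes were picked as called on the same libraries. Of the 28 genes, 22 kept their call whichever library was left out. Depth limits what can be said of genes near 0 CPM.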
